A study of Homo sapiens with 2 samples.

Results

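The miR-500 and miR-532 cluster is a set of 8 microRNA hairpins in an intron of CLCN5, the gene of an endosomal chloride and proton exchanger, on human chromosome X. Its members were taken by name, as every mature arm of miR-188, miR-362, miR-500a, miR-500b, miR-501, miR-502, miR-532 or miR-660 listed in either of the 2 small RNA libraries of the study. This gave 11 arms, 10 of them in each library and 9 in both, out of 376 miRNAs listed in one library and 375 in the other, of which 326 were listed in both. The cluster was chosen by a measured value: hsa-miR-500a-3p (miR-500a-3p), which the study places among the predicted binders of the long non-coding RNA LOC550643, was already known to be lower after LOC550643 knockdown. The difference of miR-500a-3p is therefore given as a description, and the question was whether the other arms shared it.

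The cells were MDA-MB-231-IV2-1 (MDA-MB-231-IV2 in the sample titles), a subline of MDA-MB-231 (a triple-negative breast cancer line) that was isolated in mice for its high metastatic ability. The small RNA of cells transfected with a control siRNA made the N.C library, and that of cells transfected with a pool of siRNAs against LOC550643 made the siLOC550643 library, both after 48 h. All cells were therefore of the same line and all were transfected. Each condition had 1 library, so no test between conditions was possible, no p-value is given, and the condition and the library cannot be told apart. The level of LOC550643 in these libraries was not analysed here, since the tables hold mature miRNAs alone, and the markers of the cell line were not checked for the same reason.

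The values are reads per 1000000 miRNA reads (RPM), which are shares of the miRNA reads of a library and are not divided by length. In the N.C library 1 read was worth 5.29 RPM, which places its depth at about 189034 reads, and in the siLOC550643 library 1 read was worth 2.03 RPM, at about 491541 reads. The siLOC550643 values of the cluster are therefore the more precise ones. A level of 3 reads, used as the floor, was 15.9 RPM in the N.C library and 6.10 RPM in the siLOC550643 library. The intervals are 95% Clopper-Pearson intervals of the estimated reads, and since PCR reads without molecular identifiers are not independent molecules, they cover counting error only. Differences between libraries are on the log2(RPM + 1) scale, siLOC550643 over N.C, which understates the difference of arms at low values, while their intervals were computed from the reads without the added 1.

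A microRNA hairpin is cut from a longer transcript and then trimmed to a short duplex, and either of its arms (5p or 3p) can be loaded into an Argonaute protein. The loaded arm finds its targets mainly through its seed, the bases 2 to 8 from its 5′ end. Hairpins that sit close together on the same strand of an intron can be made from the same host transcript, yet the levels of their mature arms also depend on processing, loading and decay.

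The mature sequences below are those of the arms on which the results turn, with the seed in capitals and the letters as in RefSeq (GRCh38.p14). A RefSeq sequence was matched to 10 of the 11 listed arms, and miR-660-5p is given by name alone. They are shown because 4 of the 3p arms are near copies of each other, and reads of one could be assigned to another.
miR-500a-3p: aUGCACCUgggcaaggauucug
miR-501-3p: aAUGCACCcgggcaaggauucu
miR-502-3p: aAUGCACCugggcaaggauuca
miR-500b-3p: gCACCCAGgcaaggauucug
miR-532-5p: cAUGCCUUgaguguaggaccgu
miR-532-3p: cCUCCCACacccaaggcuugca
miR-362-5p: aAUCCUUGgaaccuaggugugagu

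Slid by 1 base, miR-501-3p and miR-502-3p each differed from miR-500a-3p at 1 of 21 bases. Slid by 2 bases, miR-500b-3p differed from it at 2 of 20. The shift moves the seed, so that miR-501-3p and miR-502-3p shared 1 seed (AUGCACC) and miR-500a-3p had another (UGCACCU). No other arm with a sequence came within 3 mismatches of miR-500a-3p, miR-362-3p being the nearest with 6 over 21 bases. The 5p arms were not compared with each other, though the whole sequence of miR-500b-5p occurs within that of miR-500a-5p. The likeness runs through the hairpins too, since that of MIR502 was 88.4% and that of MIR500B 84.5% identical to that of MIR500A, against 52.5% to 60.2% for MIR188, MIR362, MIR532 and MIR660. The MIR501 hairpin was not compared.

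In the GENCODE 29 annotation of GRCh38, CLCN5 lies on the plus strand at chrX:49922615-50099235, with 9 transcripts. The 8 hairpins lie on the same strand over 11.5 kb, and none overlaps a CLCN5 exon. All are inside the intron at chrX:49925315-50042315 of the 3 CLCN5 transcripts that span them. From the 5′ end, MIR532 (chrX:50003148-50003238) is followed after 264 bases by MIR188 (chrX:50003503-50003588), and a gap of 4842 bases leads to MIR500A (chrX:50008431-50008514). MIR362 (chrX:50008964-50009028), MIR501 (chrX:50009722-50009805) and MIR500B (chrX:50010672-50010750) come next, with gaps of 449 to 866 bases. MIR660 (chrX:50013241-50013337) and MIR502 (chrX:50014598-50014683) close the cluster. LOC550643, annotated as NBDY, is on the same chromosome and strand at chrX:56729241-56818380, and starts 6.71 Mb beyond the end of the cluster.

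**Figure D1:**
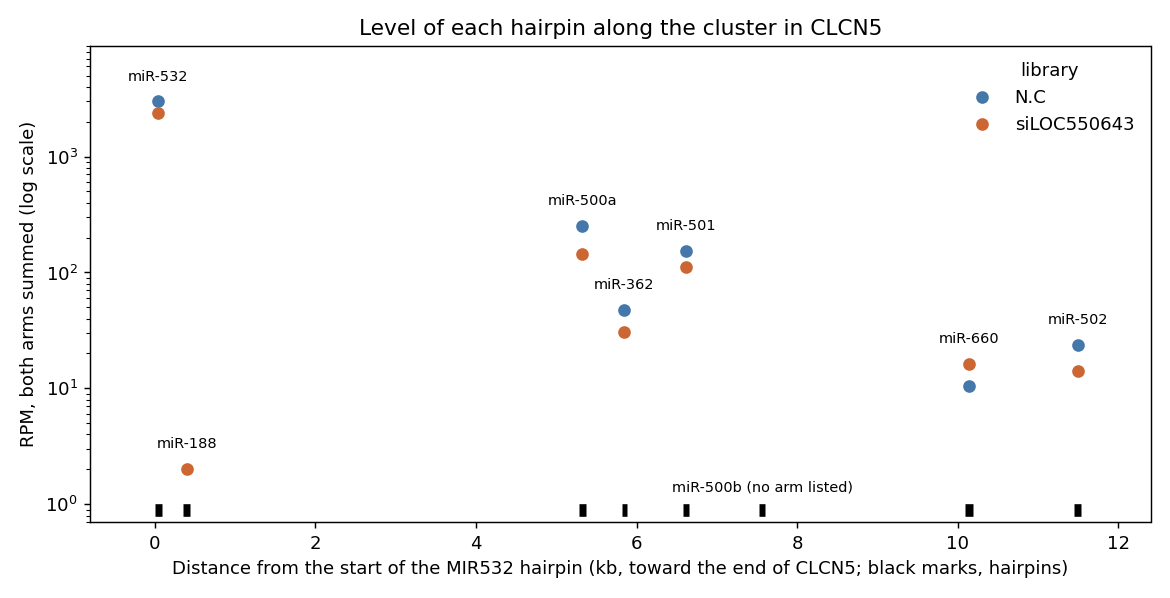
Level of each hairpin along the cluster. The horizontal axis is the distance from the start of MIR532 in kb, with black marks at the hairpins, and the vertical axis is the RPM of both arms summed, on a log scale, in the N.C (blue) and siLOC550643 (orange) libraries. The levels range from 2989 RPM for miR-532 in the N.C library to 2.03 RPM for miR-188 in the siLOC550643 library, no point is drawn for miR-188 in the N.C library, where it had no read, and the N.C point is the higher one at miR-532, miR-500a, miR-362, miR-501 and miR-502.

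Most reads of the cluster came from its first hairpin. miR-532-5p was at 2947 RPM in the N.C library (interval 2707 to 3201 RPM, 557 reads) and at 2380 RPM in the siLOC550643 library (2246 to 2520 RPM, 1170 reads). It made up 84.7% (81.7 to 87.3%) of the cluster in the N.C library and 87.9% (86.0 to 89.5%) in the siLOC550643 library. It ranked 22nd among all listed miRNAs in the N.C library and 28th in the siLOC550643 library, and no other arm of the cluster ranked above 91 in either.

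Next in both libraries was miR-500a-3p, the arm for which the cluster was chosen. It was at 235 RPM in the N.C library (174 to 319 RPM, rank 91) and at 138 RPM in the siLOC550643 library (107 to 175 RPM, 68 reads, rank 103). Its near copy miR-501-3p followed, at 143 RPM in the N.C library (94.1 to 208 RPM, 27 reads) and at 112 RPM in the siLOC550643 library (84.3 to 146 RPM, 55 reads). The intervals of these 2 arms overlapped in both libraries, with miR-500a-3p the higher in each.

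The arms miR-362-5p and miR-532-3p were lower by a further step. miR-362-5p was at 47.6 RPM in the N.C library (21.8 to 90.4 RPM, 9 reads) and at 30.5 RPM in the siLOC550643 library (17.1 to 50.3 RPM, 15 reads). miR-532-3p, the lesser arm of the miR-532 hairpin, was at 42.3 RPM in the N.C library (18.3 to 83.4 RPM, 8 reads) and at 10.2 RPM in the siLOC550643 library (3.30 to 23.7 RPM, 5 reads). Their intervals overlapped in the N.C library and in the siLOC550643 library. These 2 arms, with the 3 above, were the 5 that exceeded 3 reads in both libraries.

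The other 6 listed arms did not exceed 3 reads in both libraries. The other arm of miR-500a, miR-500a-5p, went from 18.5 RPM (3.5 reads) to 5.09 RPM (2.5 reads), and miR-502-3p from 13.2 RPM (2.5 reads) to 12.2 RPM (6 reads). miR-660-5p had 10.6 RPM (2 reads) in the N.C library and 16.3 RPM (8 reads) in the siLOC550643 library. Of these 3, miR-660-5p was the one with the higher value after knockdown, and all rest on 2 to 8 reads. The remaining 3 arms were at or under 3 reads in both libraries, and no fold is given for them. miR-188-5p had no read in the N.C library, for which the 3-read floor of 15.9 RPM is taken as the limit, and 1 read (2.03 RPM) in the siLOC550643 library. miR-501-5p had 2 reads (10.6 RPM) in the N.C library and none in the siLOC550643 library, where that floor is 6.10 RPM and that interval reaches 7.50 RPM. miR-502-5p had 2 reads (10.6 RPM) and 1 read (2.03 RPM). A further 5 arms of these hairpins (miR-188-3p, miR-362-3p, miR-500b-3p, miR-500b-5p and miR-660-3p) were not listed in either library. The same floors and interval ends apply to them if not listed means not read. With both of its arms unlisted, miR-500b was the 1 hairpin of the 8 without a value. Reads of its arms could have been assigned to the like arms of miR-500a, which was not tested.

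**Figure D2:**
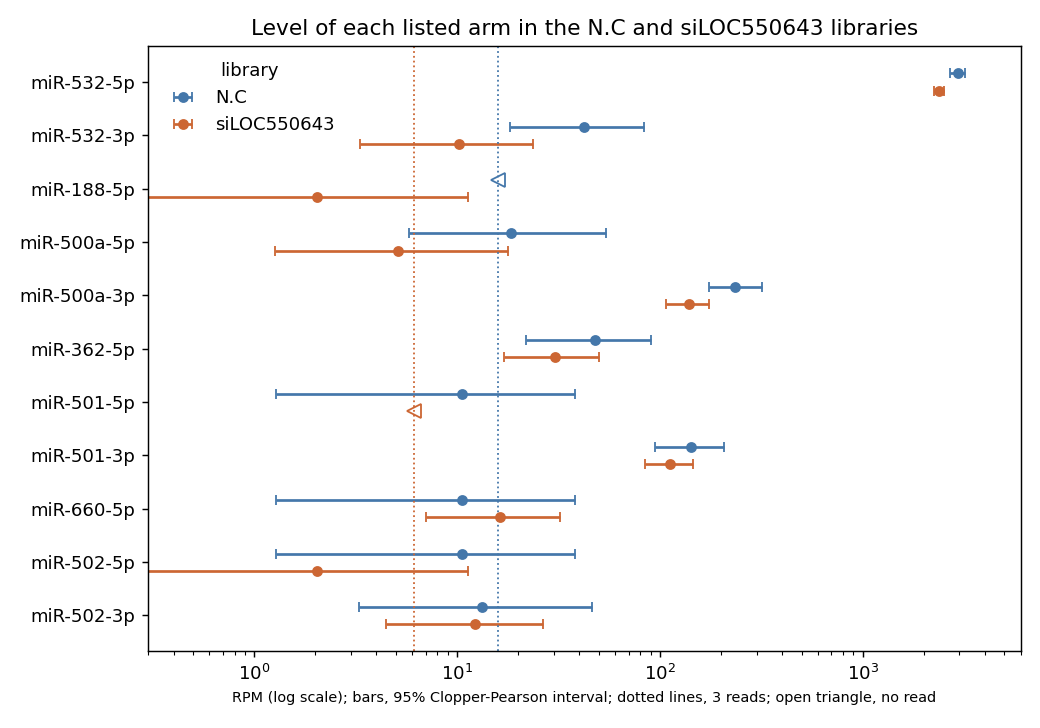
Level of each listed arm in the N.C (blue) and siLOC550643 (orange) libraries, from the 5′ to the 3′ end of the cluster. The horizontal axis is RPM on a log scale, the bars are 95% Clopper-Pearson intervals, the dotted lines mark 3 reads in each library and open triangles, drawn at 3 reads, mark an arm without a read. The intervals of the 2 libraries are apart only for miR-532-5p (2707 to 3201 against 2246 to 2520 RPM), and overlap by the narrow stretch from 174 to 175 RPM for miR-500a-3p.

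With each library scaled to its total, the lower level was found in the cluster also when miR-500a-3p was left out. Under 2 other scalings, described further on, the interval of the sum without that arm held 0. The summed level of all 11 arms was 3478 RPM in the N.C library (3220 to 3757 RPM, 658 reads) and 2709 RPM in the siLOC550643 library (2566 to 2859 RPM, 1332 reads), 22.1% lower, a log2 difference of -0.36 (interval -0.50 to -0.22). With miR-500a-3p left out, the other 10 arms went from 3243 to 2571 RPM, 20.7% lower, a log2 difference of -0.34 (-0.47 to -0.19). In bulk RNA, fewer cells with these miRNAs and less of them per cell cannot be told apart. This total is largely that of miR-532-5p. Without miR-532-5p, the other arms went from 531.7 RPM (101 reads) to 329 RPM (161 reads), 38.2% lower, a log2 difference of -0.69 (-1.07 to -0.33). With both miR-532-5p and miR-500a-3p left out, the remaining 9 arms still gave a lower sum, 296 RPM (56 reads) against 190 RPM (93 reads), a log2 difference of -0.64 (-1.14 to -0.14).

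Among the single arms, miR-500a-3p had a log2 difference of -0.76 (-1.35 to -0.21), or 1.70 times lower in the siLOC550643 library. miR-532-5p had -0.31 (-0.45 to -0.16) and miR-532-3p -1.96 (-4.01 to -0.26), which was 4.16 times lower in RPM without the added 1. These 3 had intervals wholly below 0, though the last rests on 8 and 5 reads. For miR-362-5p the log2 difference was -0.63 (-1.93 to 0.73) and for miR-501-3p -0.35 (-1.04 to 0.37), so at this depth neither was distinguishable from no difference. The intervals of miR-500a-5p (-1.68, -4.56 to 0.77), miR-502-3p (-0.11, -2.61 to 2.25) and miR-660-5p (0.58, -1.70 to 3.89) held 0 as well and were wide enough to hold large differences either way. miR-660-5p and miR-188-5p were the 2 arms with the higher value in the siLOC550643 library.

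Lower values were common in the whole table, and the counts are read against that. Of the 11 arms 9 were lower in the siLOC550643 library (8 of 10 without miR-500a-3p), and 57.6% of all listed miRNAs were (245 lower against 180 higher). More than 2-fold lower were 4 of the 11 (miR-500a-5p, miR-501-5p, miR-502-5p and miR-532-3p), against 27.3% of all listed, and 3 of these 4 were at or under 3 reads in at least 1 library. Among miRNAs over 3 reads in both libraries, 5 of 5 arms were lower against 63.2% of 201 miRNAs, and 1 of the 5 is miR-500a-3p, the arm chosen for being lower (4 of 4 without it). In the same set 1 of 5 (miR-532-3p) was more than 2-fold lower against 10.9%, and 3 of 5 had an interval wholly below 0 against 24.9% (2 of 4 without miR-500a-3p). With 1 library a group and 5 arms from 1 intron, these counts are a description. The median log2 difference was -0.63 over the 11 arms, -0.49 over the 10 without miR-500a-3p and -0.20 over all listed miRNAs.

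**Figure D3:**
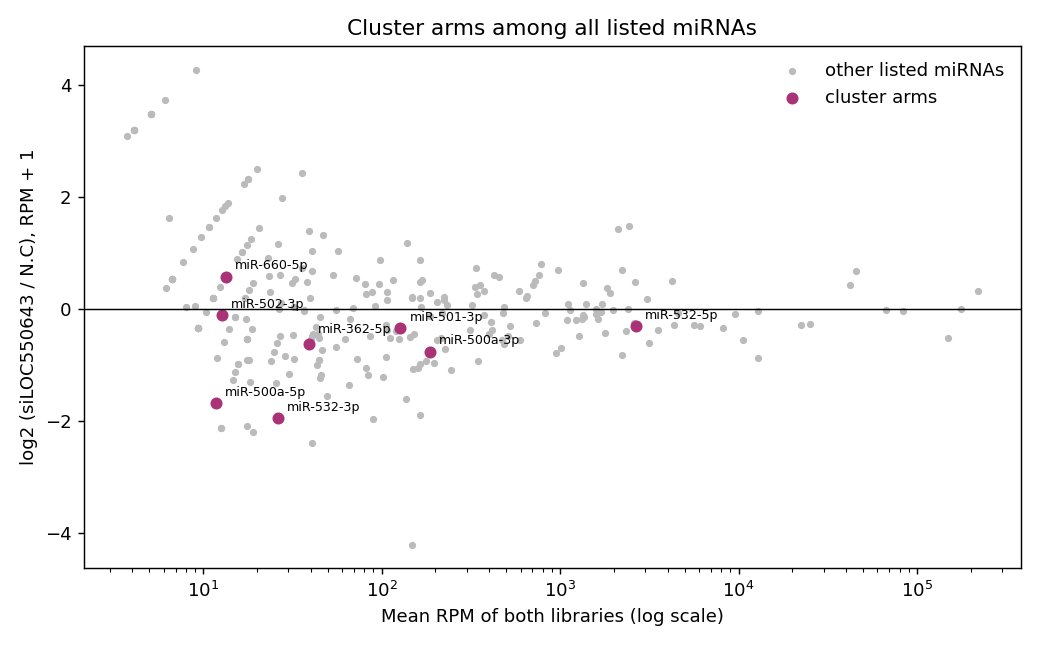
The cluster arms among all listed miRNAs. Each point is 1 of the 276 miRNAs over 3 reads in at least 1 library, with the mean RPM of both libraries on a log horizontal axis and the log2 difference (siLOC550643 over N.C, RPM + 1) on the vertical axis, cluster arms in purple. The 8 cluster arms shown run from -1.96 for miR-532-3p to 0.58 for miR-660-5p, and the scatter of all points widens toward low RPM.

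Abundant miRNAs differed less between the libraries than these medians. The 51 miRNAs at 1000 RPM or more on average were centred close to 0: their median log2 difference was -0.09, with quartiles of -0.30 and 0.09, which places the -0.31 of miR-532-5p just beyond the lower quartile. For the 124 at 100 RPM or more it was -0.09 too, with quartiles of -0.45 and 0.24, and miR-500a-3p at -0.76 was below the lower quartile while miR-501-3p at -0.35 was within them. The value of miR-532-5p depended on the scaling between libraries. When the libraries were scaled by the median of the ratios of 326 miRNAs, the log2 ratios shifted upward by 0.20, and with scaling by the 75th percentile of listed values by 0.29. miR-532-5p then came to -0.11 (-0.26 to 0.04) and -0.01 (-0.16 to 0.13), and miR-500a-3p to -0.56 (-1.15 to -0.0072) and -0.47 (-1.05 to 0.09). The whole cluster came to -0.16 (-0.30 to -0.03) and -0.067 (-0.20 to 0.07), and the cluster without miR-532-5p to -0.49 (-0.87 to -0.13) and -0.40 (-0.78 to -0.04). Both of these sums hold miR-500a-3p, the arm chosen for its lower value. Without it, the cluster came to -0.14 (-0.28 to 0.0060) and -0.041 (-0.18 to 0.10), and without miR-532-5p as well to -0.44 (-0.94 to 0.06) and -0.34 (-0.85 to 0.15). The other arms, with or without miR-532-5p, thus had an interval below 0 with scaling to the library total and an interval that held 0 under the 2 other scalings. Intervals wholly below 0 were then left in 2 of 5 arms (1 of 4 without miR-500a-3p) and in 0 of 5, against 17.4% and 11.4% of the 201 miRNAs. The size of such a shift depends on the miRNAs it is taken from. The median log2 difference was -0.19 over these 201 and, as above, -0.09 over the 124 at 100 RPM or more. Scaling by the abundant miRNAs alone was not tried.

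Comparisons within the cluster do not depend on the scaling. From here on, values for 1 arm or group against another are log2 odds ratios of rounded reads without the added 1. They can therefore depart slightly from the difference of 2 values given above. As a share of the cluster reads, miR-500a-3p was at 6.77% (5.03 to 9.04%) in the N.C library and at 5.11% (3.99 to 6.43%) in the siLOC550643 library. Its log2 difference less that of the rest of the cluster was -0.45, with an interval from -1.03 to 0.15, so a larger decrease of miR-500a-3p than of its neighbours was not shown by these reads, nor was an equal one. Against its near copy miR-501-3p the difference was -0.43 (-1.36 to 0.48). For miR-501-3p against the rest of the cluster it was 0.0094 (-0.70 to 0.75), and its share was 4.11% in the N.C library and 4.13% in the siLOC550643 library. The interval of miR-362-5p against the rest was also on both sides of 0 (-0.28, -1.58 to 1.10). At the ends of the range, miR-532-5p differed from the rest by 0.40 (-0.0053 to 0.80) and miR-532-3p by -1.71 (-3.67 to 0.09), and both intervals held 0 by a small margin. In all, 17 such comparisons between arms or groups were made, without an adjustment of the intervals for their number.

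**Figure D4:**
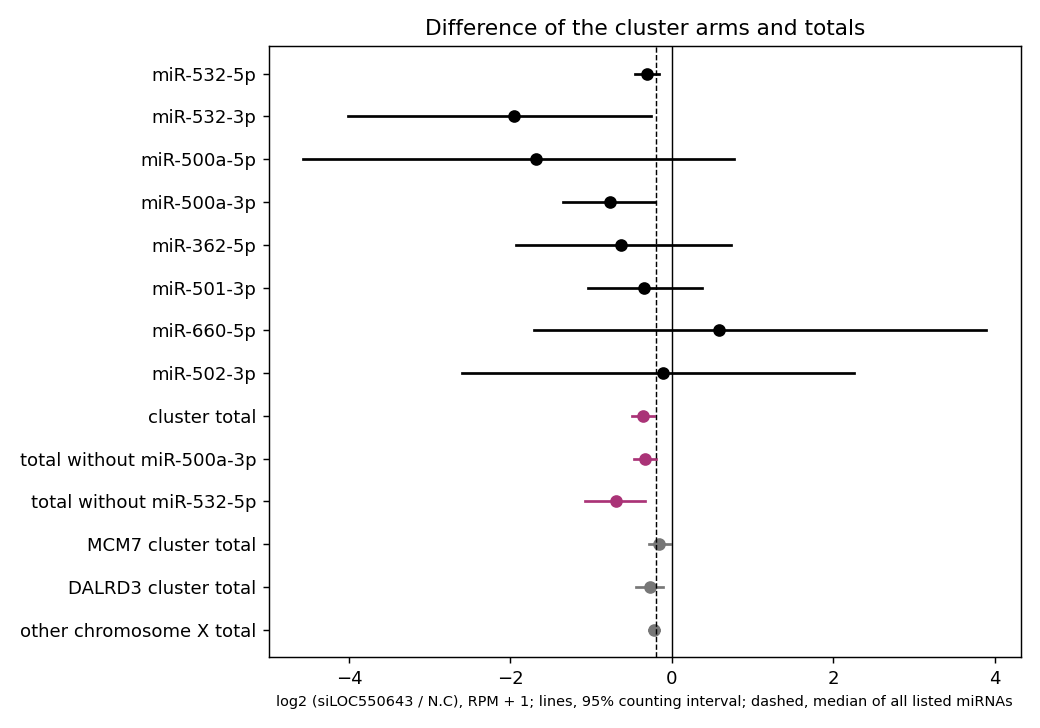
Log2 difference (siLOC550643 over N.C, RPM + 1) on the horizontal axis for the 8 arms over 3 reads in at least 1 library (black), the cluster totals (purple) and the totals of the comparison lists (grey). Lines are 95% counting intervals, the solid vertical line is 0 and the dashed line is the median of all listed miRNAs, -0.20. The cluster total (-0.36), the total without miR-500a-3p (-0.34) and the total without miR-532-5p (-0.69) lie left of 0 with their whole intervals.

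The arms of a hairpin come from the same precursor, and since both are read in the same library, their ratio does not depend on the scaling between libraries. The miR-532 hairpin was read almost wholly as 5p, with a 3p share of 1.42% (0.613 to 2.77%) in the N.C library and 0.426% (0.138 to 0.990%) in the siLOC550643 library. The log2 odds ratio of miR-532-3p against miR-532-5p between the libraries was -1.75, with an interval from -3.71 to 0.05. The miR-500a and miR-501 hairpins had the opposite strand use. The 3p share of miR-500a was 92.7% (80.4 to 97.7%) in the N.C library and 96.5% (88.1 to 99.1%) in the siLOC550643 library, and that of miR-501 was 93.1% (77.2 to 99.2%) and 100% (93.5 to 100%). For miR-362 no 3p read was listed among 9 and 15 reads, which allows a 3p share of up to 33.6% in the N.C library and 21.8% in the siLOC550643 library. The favoured arm of each of these hairpins was the same in both libraries.

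Summed by arm, the 4 listed 3p arms went from 434 to 273 RPM, a log2 difference of -0.67 (-1.08 to -0.26), and the 7 listed 5p arms from 3045 to 2436 RPM, a log2 difference of -0.32 (-0.47 to -0.18). The difference between them was -0.35 (-0.78 to 0.09) and was -0.26 (-0.88 to 0.37) without miR-500a-3p, so a difference between 3p and 5p arms was not shown. Summed by hairpin, miR-500a went from 254 to 143 RPM (log2 difference -0.82, -1.36 to -0.25) and miR-532 from 2989 to 2390 RPM (-0.32, -0.47 to -0.18). The hairpins just downstream of MIR500A gave wider intervals that held 0, with -0.45 (-1.13 to 0.25) for miR-501 and -0.63 (-1.93 to 0.73) for miR-362. For miR-502, 23.8 RPM against 14.2 RPM gave -0.70 (-2.77 to 1.11).

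Reads of the near copies may be assigned to one or to another of them, and the rule the authors used is not given in the sources used here. In the N.C library miR-500a-3p stood at 44.5 reads and miR-502-3p at 2.5 reads, both off the ladder of whole reads, and their sum is 47 reads. In the siLOC550643 library both were whole, at 68 and 6 reads. Summed over these 2 arms the level was 249 RPM in the N.C library and 151 RPM in the siLOC550643 library, a log2 difference of -0.72 (-1.27 to -0.16), close to the -0.76 of miR-500a-3p alone. With miR-501-3p added, the 3 near copies went from 391 to 262 RPM, a log2 difference of -0.58 (-1.0 to -0.14). With all 3 left out, the other 8 arms went from 3087 to 2446 RPM, -0.34 (-0.48 to -0.19). The lower sum of the 3 near copies holds miR-500a-3p, and miR-501-3p with miR-502-3p alone gave -0.33 (-1.01 to 0.33). Scaled by the 2 alternatives (median of ratios, then 75th percentile) the 3 near copies came to -0.38 (-0.80 to 0.05) and -0.28 (-0.71 to 0.15), and the other 8 arms to -0.14 (-0.28 to 0.0081) and -0.042 (-0.19 to 0.10). The arm miR-500a-5p was off the ladder in both libraries, at 3.5 reads (N.C) and 2.5 reads (siLOC550643), and sharing of reads among 5p arms was not examined.

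With scaling to the library total, other groups of miRNAs hosted by introns and other miRNAs of the X chromosome were lower as well, but their direction depended on the scaling. The 6 listed arms of the miR-25, miR-93 and miR-106b cluster in MCM7, the gene of a replicative helicase subunit, summed to 3566 RPM in the N.C library and 3194 RPM in the siLOC550643 library (log2 difference -0.16, -0.29 to -0.03), with 5 of 6 lower. The 3 listed arms of miR-191 and miR-425 in DALRD3 went from 2174 to 1794 RPM (-0.28, -0.45 to -0.10), with 3 of 3 lower. Other chromosome X miRNAs were taken from a written list of names, which may not hold them all. Its 32 arms found in the libraries went from 16234 to 13968 RPM (-0.22, -0.28 to -0.16), with 25 of 32 lower and a median of -0.62. Most of this N.C sum came from 2 arms, miR-222-3p at 6232 RPM and miR-221-3p at 4772 RPM. The counts of these 3 groups are read against the 57.6% of all listed miRNAs that were lower. Scaled by the 2 alternatives (median of ratios, then 75th percentile) the MCM7 sum came to 0.04 and 0.14, the DALRD3 sum to -0.08 and 0.02, and the chromosome X sum to -0.02 and 0.08. The last of these had an interval above 0 under the 75th-percentile scaling (0.02 to 0.14), as had the MCM7 sum (0.0040 to 0.27). The log2 difference of the whole CLCN5 cluster less that of the MCM7 cluster was -0.20 (-0.39 to -0.01), but without miR-500a-3p it was -0.18 with an interval that held 0 (-0.37 to 0.02). Against the DALRD3 cluster it was -0.08 (-0.30 to 0.14), and against the other chromosome X arms -0.14 (-0.29 to 0.0062), and these intervals held 0 without miR-500a-3p too. A difference of the other arms of the cluster from any of the 3 groups was therefore not shown at this depth. Against all other miRNAs together the cluster without miR-500a-3p was at -0.34 (-0.48 to -0.19). That sum is 0.32% of the N.C library and 0.26% of the siLOC550643 library. The comparison therefore nearly repeats the one scaled to the library total and is not a further result. Under the 2 other scalings the interval of that sum held 0, as given above.

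The letters of LOC550643 were searched for the members' seed matches in its isoforms of 718, 581 and 476 nt (V1, V2 and V3), on the strand of the transcript. The reverse complement of bases 2 to 7 of miR-500a-3p, GGTGCA, occurred once in V1, at bases 366 to 371, and once in V3, and did not occur in V2. This is chrX:56732097-56732102 of GRCh38, in exon 2 of NBDY-201 (chrX:56732063-56732199) and outside the coding sequence. The next letter of V1 makes the match GGTGCAT, which is the 7-base match of bases 2 to 8 of miR-501-3p and miR-502-3p, while miR-500a-3p itself had no 7-base match in V1, V2 or V3. The same stretch thus matched all 3 near copies, and matched the 2 less abundant ones over more bases of the seed. The last letter of GGTGCAT is also complementary to the first base of miR-500a-3p, which lies outside its seed. The 30 bases of V1 from base 355 on, chrX:56732086-56732115 on the plus strand, are shown with that match in capitals.
LOC550643 exon 2: tccatttccctGGTGCATtcatataatagt

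The other arm with a match was miR-532-3p, whose bases 2 to 7 are matched by TGGGAG at bases 97 to 102 of V1, chrX:56729355-56729360, in exon 1. It lies in the annotated coding sequence, which starts at base 96, and V2 holds it while V3 does not. The 30 bases of V1 from base 86 on, chrX:56729344-56729373 on the plus strand, are shown with the match and the A after it in capitals.
LOC550643 exon 1: tgtaatccttaTGGGAGAccaaccttgtgc

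In all, 4 of the 10 arms with a sequence had a 6-base match in V1 (miR-500a-3p, miR-501-3p, miR-502-3p and miR-532-3p), against 16.6% of the 350 listed miRNAs with a sequence. A 7-base match was held by 2 of the 10, against 6.0% of the 350, and the matches of the near copies are 1 site, so they are not separate cases. The most abundant arm, miR-532-5p, and the arm miR-362-5p had no match of either length in any isoform. Their log2 differences, scaled to the library total, were -0.31 (-0.45 to -0.16) and -0.63 (-1.93 to 0.73). The 2 arms with the 7-base match, miR-501-3p and miR-502-3p, had -0.35 and -0.11, with intervals that held 0. The 2 with the 6-base match alone had -0.76 (-1.35 to -0.21) for miR-500a-3p and -1.96 (-4.01 to -0.26) for miR-532-3p. Of these, miR-500a-3p was chosen for its lower value and miR-532-3p rests on 8 and 5 reads. Arms with and without a match were thus found at both small and larger differences. Over all listed miRNAs above the floor in both libraries, the median log2 difference was -0.15 for the 8 with a 7-base match in V1 and -0.20 for the 147 without a 6-base match. A match of letters is a description, and binding was not tested here.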

How the data were processed

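NEBNext small RNA libraries of 2 samples were sequenced by the authors (MiSeq V2 kit per the methods and design, whereas the labels' protocol names a v3 kit and a HiSeq). The labels give the cell line as MDA-MB-231, the titles as IV2 and the treatment protocol and methods as IV2-1. The submitters' processing notes name FastQC, cutadapt and hg38. Reads were counted per mature miRNA by the authors' own program, and the deposited values are RPM, 1 table per library. The aligner, the miRNA release, low-value filters and the rule for reads that match several miRNAs are not given in the sources used here.

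Each table was rescaled to a total of 1000000 (the deposited RPM values sum to 999996 and 999845), and an unlisted miRNA was set to 0. Reads were estimated from the step between low values: among values of at most 20 reads, 92.9% (of 253, N.C) and 91.5% (of 224, siLOC550643) were whole within 0.1 read. Values off the ladder were rounded for intervals, as for miR-500a-3p (44.5, taken as 45). Ratios of reads were given exact intervals by conditioning on their sum, with a procedure tested on simulated data. Python 3.11.15, numpy 2.4.6, scipy 1.17.1, matplotlib 3.10.9 and biopython 1.88 were used. The text names every member and no other miRNA for how it moved. Members, the comparison lists (MCM7 and DALRD3 clusters, other chromosome X arms) and the 2-fold threshold were chosen with earlier results of these data known. Of the list arms with a reference position, 6 of 6, 2 of 2 and 25 of 25 lay on chromosomes 7, 3 and X. The lists held 6, 3 and 32 arms, and the position of the remaining arms was not checked. Scaling, pseudocount (main 1 RPM), filters, arms summed and fold threshold were varied, and results without miR-500a-3p were added after seeing the data.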

Additional observations from a re-analysis of the deposited data

How the results depend on the processing

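No paired analysis was possible because each group has 1 library, and no replicate could be left out. The log2 difference of the cluster total, with and without miR-500a-3p, stayed below 0 under every alternative tried. Under the 2 other scalings, however, both values lay outside the interval found with scaling to the library total. The interval of the total without miR-500a-3p then held 0 with both, and that of the whole total with 75th-percentile scaling. For the whole total, -0.36 became -0.16 with median-of-ratios scaling, -0.067 with 75th-percentile scaling and -0.69 without miR-532-5p. The total without miR-500a-3p (-0.34) became -0.14 and -0.041 under the same 2 scalings. It became -0.64 without miR-532-5p as well, an alternative chosen after seeing the data. Leaving miR-500a-3p out of the counts, also chosen then, gave 8 arms lower and 4 more than 2-fold lower. Of the 11 arms, 9 were lower, against 57.6% of all listed miRNAs. The count was 5 when only the 5 over 3 reads in both libraries were kept, against 63.2% of such miRNAs. With median-of-ratios and 75th-percentile scaling 8 of the 11 were lower, against 50.1% and 48.2% of all listed miRNAs. The count of 4 more than 2-fold lower, against 27.3% of all listed miRNAs, became 2 with a pseudocount of 10 RPM, which shrinks the ratios of low arms. It became 2 with a mean of at least 10 RPM required, since fewer arms were then counted. For the same reason it became 1 with over 3 reads in both libraries required, against 10.9% of such miRNAs. Of 40 values of single arms under other scalings and pseudocounts, 38 lay inside the counting interval, the 2 outside being miR-532-5p under the 2 scalings (-0.11 and -0.01), and 2 changed sign, both of miR-502-3p. The depth of the N.C library, with 2 to 9 reads for 7 of the arms, sets the width of most intervals, and a spread between cultures could not be measured.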
